A study of Mus musculus with 38 samples.

Results

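The level of 5-methylcytosine (5mC) in neural stem/progenitor cells (NSPCs) was compared between 18 and 3 months of age across classes of chromatin and expression. The comparison rested on the 6 oxidative bisulphite (oxBS) libraries among the 38 samples of the series, 3 from young adult mice (3 months) and 3 from aged mice (18 months). Each library came from NSPCs of the subventricular zone (SVZ) of 5 pooled male mice of the strain C57BL/6JBabr. The cells had grown with EGF and FGF as neurospheres and were harvested at passage 2, so the values describe cultured cells. No transgene or treatment differed between the ages, and the 3 derivations of each age, made on different days, carried the replicate numbers 1 to 3. Chromosomes 1 to 19 were used.

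Methylation of the cytosine in a CpG is copied to the new strand at each division by DNMT1 and is removed by dilution or through oxidation by TET enzymes, which gives 5-hydroxymethylcytosine (5hmC). Most CpGs in mammalian cells are methylated, whereas CpG-rich promoters that carry the active mark H3K4me3 are usually free of it. Promoters of silent developmental genes can instead carry the Polycomb mark H3K27me3, and bodies of transcribed genes are densely methylated. Standard bisulphite (BS) reads 5mC and 5hmC together, oxBS reads 5mC alone, and BS minus oxBS estimates 5hmC.

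Promoters were taken as 1 window of 5 kb centred on the transcription start site (TSS) for each of 24415 genes. For a gene with several among the 69524 distinct windows, the one with the highest H3K4me3, averaged over both ages, was used. The choice of window is therefore not independent of the H3K4me3 classes. They were sorted into quartiles by H3K4me3, by H3K27me3 and by RNA level (log2 RPM, the log2 of reads scaled to library size), averaged over both ages. Gene bodies of 24374 genes, without the parts inside TSS windows, were sorted by RNA level. Methylated and unmethylated calls were summed over each class in each library, and the level is given as the percent of calls that were methylated. Differences are aged minus young adult in percentage points. With 3 libraries against 3, the exact permutation test could not give a two-sided p below 0.1, and the paired exact test within replicate numbers could not go below 0.25. These p-values measure the spread between pooled cultures and not between single mice.

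To show what the windows look like at the level of the sequence, the 250 bases upstream of the TSS are printed for 1 gene of each of 5 gene lists described further on. They span the range from unmethylated to methylated promoters. The sequences were taken from RefSeq (GRCm38.p6) and are written in the direction of transcription, with each CpG in capitals. They lie at chr3:34649745-34649994 on the plus strand (Sox2), chr6:52227371-52227620 (Hoxa9), chr17:50293621-50293870 (Dazl), chr7:6730420-6730669 (Peg3) and chr17:37197967-37198216 (Olfr94), the last 4 on the minus strand.
Sox2: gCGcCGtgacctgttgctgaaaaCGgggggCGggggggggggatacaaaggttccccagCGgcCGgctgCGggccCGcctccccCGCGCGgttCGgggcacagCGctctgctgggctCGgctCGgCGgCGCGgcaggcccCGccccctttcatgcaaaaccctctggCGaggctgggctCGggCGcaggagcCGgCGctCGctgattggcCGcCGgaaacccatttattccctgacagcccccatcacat
Hoxa9: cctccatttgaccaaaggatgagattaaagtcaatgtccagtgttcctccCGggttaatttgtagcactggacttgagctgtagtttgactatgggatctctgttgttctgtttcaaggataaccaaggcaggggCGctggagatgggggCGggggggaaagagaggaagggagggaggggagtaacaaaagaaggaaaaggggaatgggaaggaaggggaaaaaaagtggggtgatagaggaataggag
Dazl: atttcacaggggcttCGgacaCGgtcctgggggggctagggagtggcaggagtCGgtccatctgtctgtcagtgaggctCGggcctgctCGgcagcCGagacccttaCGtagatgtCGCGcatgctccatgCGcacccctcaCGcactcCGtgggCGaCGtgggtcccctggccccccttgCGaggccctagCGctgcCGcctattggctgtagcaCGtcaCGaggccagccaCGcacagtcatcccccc
Peg3: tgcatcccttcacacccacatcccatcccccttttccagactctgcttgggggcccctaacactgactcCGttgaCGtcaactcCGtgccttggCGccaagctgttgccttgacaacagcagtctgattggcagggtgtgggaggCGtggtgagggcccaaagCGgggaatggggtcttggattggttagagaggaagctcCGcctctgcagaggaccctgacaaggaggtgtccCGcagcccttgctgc
Olfr94: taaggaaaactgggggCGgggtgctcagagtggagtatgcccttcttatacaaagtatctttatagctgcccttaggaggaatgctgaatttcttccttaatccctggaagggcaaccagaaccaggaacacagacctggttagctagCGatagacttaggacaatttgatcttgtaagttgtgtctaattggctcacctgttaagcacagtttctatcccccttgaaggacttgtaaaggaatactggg

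The Sox2 stretch, upstream of a gene for a transcription factor that maintains neural stem cells, held 27 CpGs. It had 0 methylated calls among 78 in young adult and 0 among 64 in aged NSPCs, pooled over the 3 libraries, with 95% exact Clopper-Pearson upper bounds of 4.62% and 5.60%. Hoxa9, a regional patterning gene, had only 3 CpGs there, with 1 of 11 calls methylated in young adult and 0 of 9 in aged NSPCs. The RefSeq start of Hoxa9 lies 1219 bp from the centre of its window. Dazl, an RNA-binding protein of germ cells, was methylated in 50 of 55 calls (90.9%, interval 80.0 to 97.0%) at 3 months and in 10 of 11 (90.9%, interval 58.7 to 99.8%) at 18 months. Peg3, a paternally expressed imprinted gene, was at 9 of 21 calls (42.9%, interval 21.8 to 66%) and 11 of 24 (45.8%, interval 25.6 to 67.2%). The stretch of the olfactory receptor gene Olfr94, which holds 2 CpGs, was methylated in 10 of 10 and 7 of 10 calls. Within these stretches the ages could not be separated at this depth, while Sox2 and Dazl lay far apart. The intervals cover counting error only and treat the calls as independent. Calls on neighbouring CpGs can come from 1 read, so the intervals may be too narrow.

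The oxBS libraries held 13307039 to 20897594 CpG calls on the autosomes, with 1.2 to 1.33 calls per covered position and strand. Aged replicate 3 was the shallowest. Apparent methylation of mitochondrial CpGs, which bounds incomplete bisulphite conversion, was 0.0217% to 0.0748%. How completely 5hmC was oxidised in the oxBS libraries was not examined. In the RNA libraries of the same derivations, all 8 NSPC markers lay above a log2 RPM of 2, with Fabp7 the highest at 10.8. In contrast, 1 of 5 neuronal, 1 of 5 microglial, 3 of 5 oligodendrocyte and 4 of 5 astrocyte markers did. So did 1 of 4 endothelial, 1 of 3 pericyte and 1 of 3 ependymal markers, with the ependymal Foxj1 at 5.80. The summed NSPC markers ranged over log2 RPM 12.05 to 12.3 in young adult and 12.01 to 12.2 in aged NSPCs. The summed astrocyte markers lay at 10.4 to 10.6 and 10.1 to 10.3, without overlap. The part of this shift in the 5mC values was not tested.

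Over all autosomal calls, 5mC was 70.59%, 70.80% and 71.89% in young adult replicates 1 to 3 and 70.85%, 71.35% and 71.99% in aged replicates 1 to 3. The ages overlapped, and replicate 3 was highest in both. The mean was 71.1% ± 0.701 (SD, n = 3) at 3 months and 71.4% ± 0.571 at 18 months, a difference of 0.31 points (exact permutation p = 0.5, two-sided). Each age difference by class stands beside this offset, which was 0.0093 points without aged replicate 3, 0.052 without young adult replicate 1 and 0.71 without young adult replicate 3.

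Promoter methylation fell steeply with H3K4me3 in both ages. In young adult NSPCs it was 75.3% ± 0.815 (SD, n = 3) in the quartile with the least H3K4me3, 48.7% ± 0.882 in quartile 2, 25.5% ± 0.337 in quartile 3 and 18.1% ± 0.483 in quartile 4. In aged NSPCs the same quartiles held 75.4% ± 0.645, 49.5% ± 0.820, 26.0% ± 0.206 and 18.6% ± 0.618. CpG content ran the other way, with a median of 33 CpGs per window in quartile 1 and 151 in quartile 4. Quartile 4 minus quartile 1 was -57.24 points at 3 months, against age differences below 1 point.

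**Figure D1:**
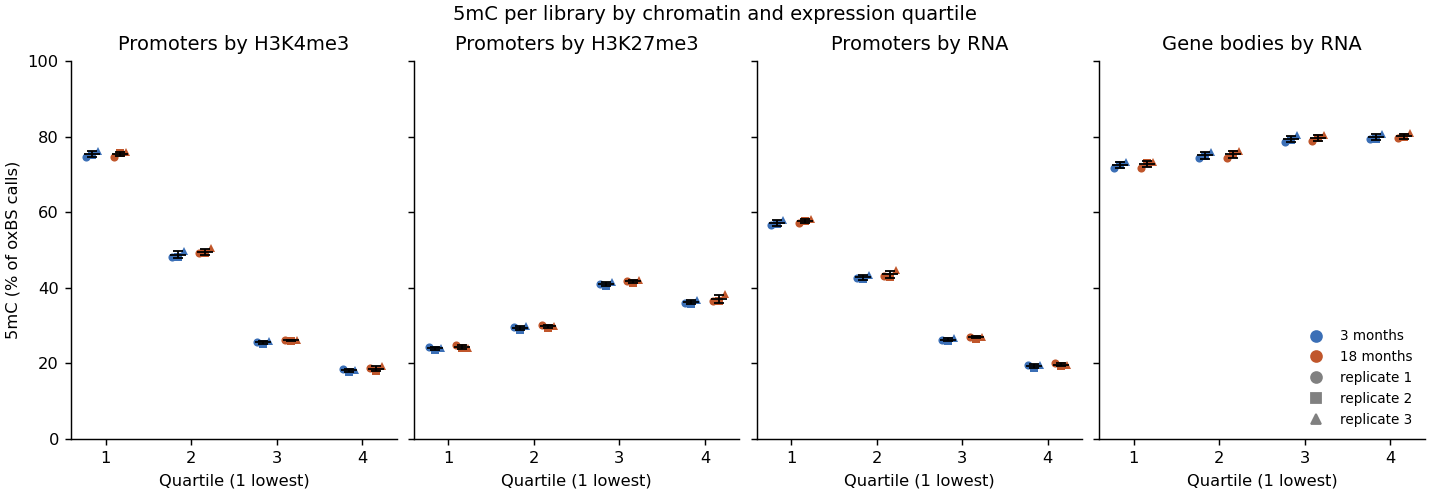
5mC (percent of oxBS calls, y axis) in each of the 6 libraries by quartile (x axis, 1 lowest) of H3K4me3, H3K27me3 and RNA at promoters and of RNA at gene bodies. Points are libraries (marker shape gives the replicate number), black bars the mean and SD of 3 libraries. The class means span from 18.1% to 80.1%, and the points of the 2 ages overlap in each quartile.

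Quartile 2 of H3K4me3, promoters with intermediate to low signal, had the most even age difference. It was at 48.25%, 48.22% and 49.76% in young adult replicates 1 to 3 and at 49.07%, 49.08% and 50.49% in aged replicates 1 to 3. Each aged library was above the young adult library of its own number, by 0.81, 0.86 and 0.73 points, but below the highest young adult library in 2 of 3 cases. The mean difference of 0.80 points had an exact permutation p of 0.3, and the paired exact test gave 0.25, its smallest value. The difference was 0.33 points without aged replicate 3, 1.31 without young adult replicate 3, and -0.069 at the positions called in all 6 libraries. In quartile 1 the pair differences were 0.01, 0.58 and -0.40 points and the mean was 0.07 (exact permutation p = 0.9). That sign was not stable: the mean was -0.28 without young adult replicate 1, -0.04 without young adult replicate 2, -0.09 without aged replicate 2 and -0.15 without aged replicate 3. In quartile 3 the difference was 0.49 points, with all 3 pairs higher (0.57, 0.60 and 0.30; exact permutation p = 0.2). It ran from 0.32 without young adult replicate 2 to 0.66 without young adult replicate 3 and was -0.18 at the positions called in all 6 libraries.

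In quartile 4, the promoters of highly active genes, the pair differences were uneven: 0.14, 0.42 and 0.97 points (mean 0.51, exact permutation p = 0.4). The mean was 0.20 without aged replicate 3, 0.24 without young adult replicate 2, 0.82 without aged replicate 2 and -0.57 at the positions called in all 6 libraries. The unevenness lay in 38 windows whose Input, the ChIP control without antibody, was above a log2 RPM of 3. They include Gm10800 and Gm10801 on chromosome 2 and a cluster of predicted genes near the start of chromosome 9. Of them, 18 fell in H3K4me3 quartile 4, where they gave 4.72% to 5.46% of the calls in 5 libraries and 6.22% in aged replicate 3. The 38 together were methylated at 69.9% to 71.7%, far above the other windows of that quartile. With these windows left out, a choice made after the data were seen, the quartile stood at 15.39%, 14.84% and 15.42% at 3 months and 15.85%, 15.20% and 15.67% at 18 months. The pair differences were then 0.46, 0.36 and 0.25 points and the mean 0.36 (exact permutation p = 0.3). In the other quartiles of H3K4me3 the age difference moved by less than 0.01 points.

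H3K27me3 gave no monotonic order. Promoter 5mC was lowest in quartile 1 (23.9% ± 0.401 in young adult, 24.3% ± 0.446 in aged NSPCs) and highest in quartile 3 (41.0% ± 0.558 and 41.7% ± 0.426). Quartile 4, where Polycomb targets lie, was at 36.01%, 35.73% and 36.86% in young adult replicates 1 to 3 and at 36.46%, 36.39% and 38.21% in aged replicates 1 to 3. The aged libraries were higher in all 3 pairs, by 0.45, 0.67 and 1.35 points, and 2 of them lay below young adult replicate 3. The mean difference was 0.82 points, with an exact permutation p of 0.4. It was 0.23 without aged replicate 3 and -0.43 at the positions called in all 6 libraries. Here too the high-Input windows mattered, since 37 of the 38 lay in this quartile, with 6.81% to 7.68% of its calls in 5 libraries and 8.77% in aged replicate 3. Without them the level was 33.5% ± 0.641 at 3 months (33.09%, 33.13% and 34.22%) and 34.2% ± 0.676 at 18 months (33.92%, 33.80% and 35.03%). The ages still overlapped. The pair differences became 0.83, 0.67 and 0.80 points (mean 0.77, exact permutation p = 0.3). Quartiles 1 to 3 differed by 0.33, 0.45 and 0.62 points. Without young adult replicate 2 these were 0.11, 0.18 and 0.33, and without aged replicate 1 they were 0.083, 0.24 and 0.60. At the positions called in all 6 libraries they were 0.61, -0.040 and 0.029.

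Sorting by RNA level gave the inverse order at promoters. The 6174 promoters of quartile 1, whose genes had no or almost no reads, were methylated at 57.1% ± 0.679 in young adult and 57.6% ± 0.581 in aged NSPCs. Quartile 2 stood at 42.8% ± 0.634 and 43.6% ± 0.967, quartile 3 at 26.2% ± 0.343 and 26.8% ± 0.248, and quartile 4 at 19.3% ± 0.405 and 19.6% ± 0.365. All 4 were higher at 18 months in 3 of 3 pairs, but at the positions called in all 6 libraries quartiles 1, 2 and 4 differed by -0.12, -0.31 and -1.05 points. Without aged replicate 3 quartiles 1 and 2 differed by 0.24 and 0.26 points, and without young adult replicate 2 quartile 4 differed by 0.10. The mean differences of the 4 quartiles were 0.53, 0.82, 0.57 and 0.33 points (exact permutation p = 0.4, 0.4, 0.2 and 0.5). Quartile 2 held 19 of the 38 high-Input windows, with 8.93% of its calls in aged replicate 3 and 6.87% to 7.78% in the other libraries. Without them it stood at 40.5% ± 0.662 and 41.3% ± 0.670. Its pair differences went from 0.50, 0.71 and 1.24 to 0.84, 0.73 and 0.78 points (mean 0.78, exact permutation p = 0.3). Since RNA quartile 1 is made of genes at the floor of detection, its border with quartile 2 separates genes with almost the same level.

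Gene bodies behaved as the mirror image of promoters, with more 5mC where transcription was higher. Young adult NSPCs had 72.5% ± 0.776 in RNA quartile 1, 75% ± 0.862 in quartile 2, 79.3% ± 0.887 in quartile 3 and 79.9% ± 0.790 in quartile 4. Age differences were 0.16, 0.27, 0.33 and 0.20 points (exact permutation p = 1, 0.7, 0.6 and 0.5). Without aged replicate 3 they were -0.13, -0.14, -0.11 and -0.16 points. Without young adult replicate 1 they turned to -0.21 and -0.10 in quartiles 1 and 2 and to -0.01 in quartile 4, without young adult replicate 2 to -0.05 in quartile 4, and without aged replicate 2 to -0.01 in quartile 1. The rise from gene body quartile 1 to 4 was 7.37 ± 0.380 points at 3 months and 7.41 ± 0.568 at 18 months (exact permutation p = 0.9).

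**Figure D2:**
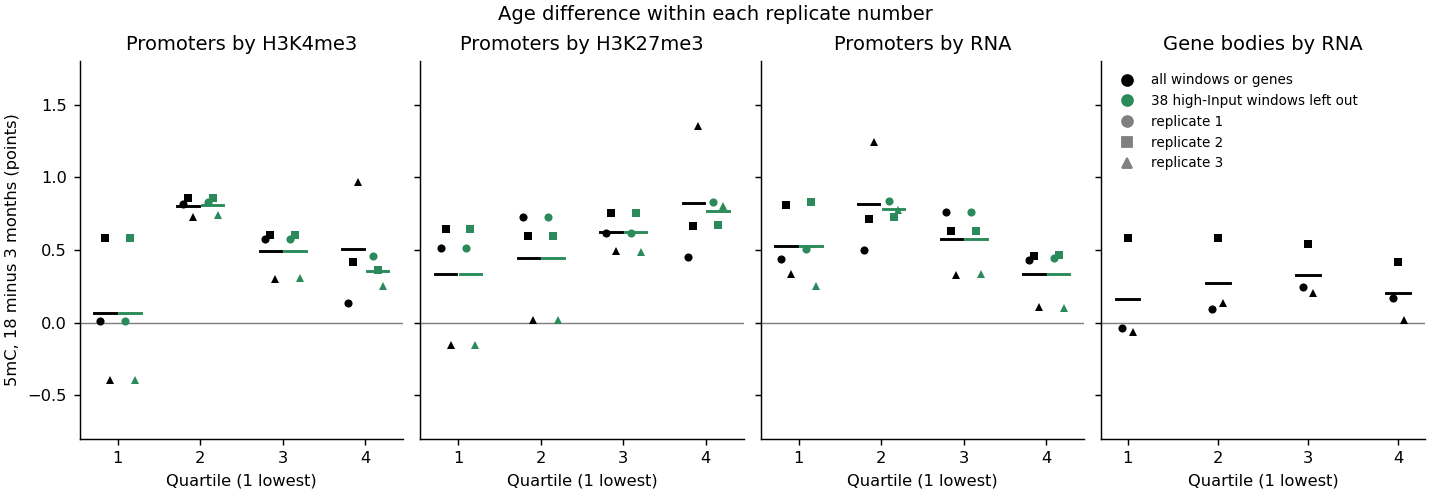
Aged minus young adult 5mC (percentage points, y axis) within replicate numbers 1 to 3 (marker shape) by quartile (x axis); lines are means. Black points use all windows or gene bodies, green points leave out the 38 windows with high Input, which draws the 3 pairs of H3K27me3 quartile 4 together at 0.67 to 0.83 points.

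Across the 16 classes the mean was higher at 18 months in 16, and higher in all 3 pairs in 13. This count depended on the libraries and positions used. It was 11 without aged replicate 3 and 12 without young adult replicate 1, each of which breaks a pair. With replicate 1, 2 or 3 left out of both ages it was 16, 14 and 16. At the 212911 positions called in all 6 libraries it was 8 of 16. Each library covered 11043971 to 15767910 autosomal positions, so the shared ones are a small part. The high-Input windows were kept among them, and their share of these calls was not examined. The aged and young adult libraries overlapped in each class, and the smallest exact permutation p was 0.2, or 0.667 after Benjamini-Hochberg adjustment over the 16. Within replicate numbers the differences could be even, as in H3K4me3 quartile 2 (SD of the 3 pair differences 0.066 points), but the paired exact test cannot separate them below 0.25. The classes share libraries and calls, so their number is not a number of independent observations. Whether the age difference changed with chromatin was asked by the contrast of quartile 4 minus quartile 1 within each library. It moved between the ages by 0.44 points for H3K4me3 (exact permutation p = 0.7), but by -1.54 at positions called in all 6 libraries (exact permutation p = 0.1), -0.15 in BS and -0.023 within 500 bp of the TSS. It moved by 0.49 points for H3K27me3 (exact permutation p = 0.8). For RNA at promoters it moved by -0.20 points (exact permutation p = 0.7) and was lower in all 3 pairs, by -0.008, -0.35 and -0.23. The paired exact test gave 0.25 there, its smallest value. For gene bodies the contrast moved by 0.04 points. Without the high-Input windows the contrasts of H3K4me3, H3K27me3 and RNA at promoters moved by 0.29, 0.43 and -0.19 points. At positions called in all 6 libraries the H3K27me3 contrast was -1.04 and the gene body contrast -0.16 points. Without aged replicate 3 the H3K27me3 contrast turned to -0.28 points and the RNA contrast to 0.12, and without young adult replicate 1 the RNA contrast turned to 0.19. The gene body contrast turned to -0.17, -0.20 and -0.03 points without young adult replicate 2, aged replicate 1 and aged replicate 3. A dependence of the age difference on chromatin class was therefore not detectable with 3 libraries per age.

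The autosomal level of the same library was then subtracted, with the high-Input windows left out. This takes the same number of points from high and low classes of a library. The SD of the young adult libraries rose from 0.328 to 0.641 points in H3K4me3 quartile 4 and fell from 0.894 to 0.234 in quartile 2. The part of this scale in the differences was not tested. The classes fell apart as follows. Promoters in H3K4me3 quartile 2, H3K27me3 quartile 4 and RNA quartile 2 were still higher in aged NSPCs in 3 of 3 pairs, by 0.50, 0.46 and 0.47 points (exact permutation p = 0.2 each). The most active promoters, in H3K4me3 quartile 4 and RNA quartile 4, and all 4 gene body quartiles differed by -0.15 to 0.05 points. Gene body quartile 4 was lower in 3 of 3 pairs (-0.097, -0.14 and -0.081 points), and quartile 3 of each of the 3 promoter measures was higher in 3 of 3 (means 0.19, 0.31 and 0.27 points). H3K4me3 quartile 1 differed by -0.24 points (exact permutation p = 0.4). Silent promoters, in RNA quartile 1, were the only one of these 16 in which the ages did not overlap: relative to the autosomes they stood at -14.42 ± 0.014 points at 3 months and -14.20 ± 0.064 at 18 months. That difference of 0.22 points had an exact permutation p of 0.1, the smallest possible, before adjustment over the 16.

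Crossing the quartiles of both marks gave 16 joint classes, again without the high-Input windows. The 3213 promoters with H3K4me3 in quartile 2 and H3K27me3 in quartile 4, mostly genes with little RNA (median log2 RPM -4.86), were at 40.8% ± 0.759 and 41.6% ± 0.788. Their pairs differed by 0.68, 0.77 and 0.78 points (exact permutation p = 0.3). The 1614 promoters of H3K4me3 quartile 2 with H3K27me3 quartile 3 had a difference of 1.31 points, the largest of the 16, with pairs of 1.39, 1.08 and 1.46. The 440 promoters in the top quartile of both marks stood at 14.0% ± 0.615 and 14.7% ± 0.571. In all, 14 joint classes were higher at 18 months, 8 of them in all 3 pairs. The ages did not overlap in 1, quartile 3 of both marks (27.7% ± 0.351 and 28.1% ± 0.129, exact permutation p = 0.1, adjusted p = 0.873 over the 16).

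The position of 5mC inside the window was not used to build the classes. In 100 bp steps, H3K4me3 quartile 4 fell from 57.9% at the upstream edge to 0.49% ± 0.046 in the last 100 bp before the TSS in young adult NSPCs, where aged NSPCs had 0.56% ± 0.033. Quartile 3 reached 1.73% ± 0.08 and 1.70% ± 0.15 at the same step, and quartile 2 only 22.0% ± 0.662 and 22.7% ± 0.573. Quartile 1 was nearly flat, with a lowest step of 72.3% ± 0.788. In quartile 2 the steps within 500 bp of the TSS had a median difference of 1.13 points, against 0.41 in the steps beyond 2 kb. In quartiles 3 and 4 the steps close to the TSS differed by a median of 0.12 and 0.06 points, where little 5mC was present, and those beyond 2 kb by 0.78 and 0.37. H3K27me3 quartile 4 had its lowest step at 11.4% ± 0.570 and 11.6% ± 0.136, and 42 of its 50 steps were higher in aged NSPCs. These step values are a description.

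Summed over 500 bp on either side of the TSS, H3K4me3 quartile 2 was at 28.9%, 28.3% and 29.8% in young adult replicates 1 to 3 and at 29.84%, 29.81% and 31.0% in aged replicates 1 to 3. The ages did not overlap, and the difference was 1.22 points (exact permutation p = 0.1, the smallest possible, adjusted p = 0.343 over 12 promoter classes). The highest young adult library, at 29.78%, lay just below the lowest aged one. The ages did not overlap either in H3K27me3 quartile 3 (17.7% ± 0.459 and 18.4% ± 0.252) and RNA quartile 3 (5.52% ± 0.098 and 5.71% ± 0.059), also at p = 0.1 by the exact permutation test. All 12 promoter classes had a higher mean at 18 months in this core, and 9 of them overlapped. The high-Input windows were kept in these sums, unlike in the step values. H3K4me3 quartile 4 had uneven pairs here, at -0.18, 0.19 and 0.79 points.

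**Figure D3:**
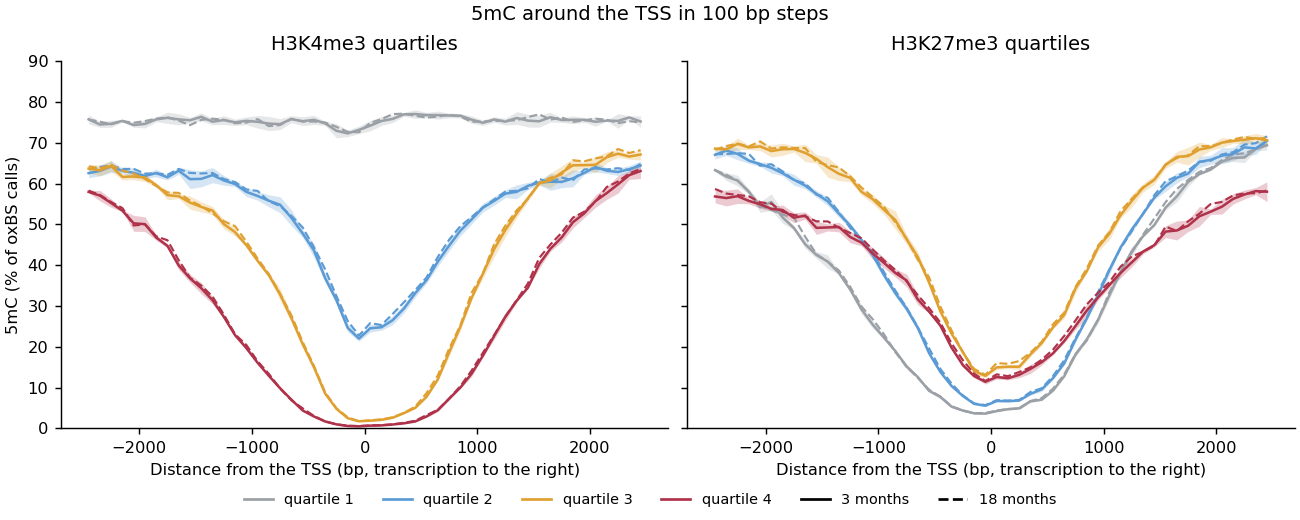
5mC (percent of oxBS calls, y axis) in 100 bp steps by distance from the TSS (bp, x axis) for quartiles of H3K4me3 (left) and H3K27me3 (right), high-Input windows left out. Solid lines with a band are the mean and SD of 3 young adult libraries, dashed lines the mean of 3 aged libraries; the dashed lines follow the solid ones, with a dip to 0.49% in H3K4me3 quartile 4.

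5hmC, as BS minus oxBS of the same age and replicate number, gave a second readout of the classes. It was lowest in the promoters with least H3K4me3, at 0.23% ± 0.226 in young adult and 0.28% ± 0.144 in aged NSPCs, and 0.38% to 0.70% in gene bodies. It was highest in H3K27me3 quartile 2, at 1.88% ± 0.386 and 1.49% ± 0.174. In 13 of the 16 classes 5hmC was lower on average at 18 months, in 6 of them in all 3 pairs. The clearest was RNA quartile 4, with 1.51% ± 0.278 and 1.18% ± 0.070 (difference -0.34 points, exact permutation p = 0.1, adjusted p = 0.48 over the 16). Because 5hmC is computed by subtracting the oxBS percent, a higher oxBS value enters it with the opposite sign, and the 2 readouts are not independent. The BS libraries themselves, which had no part in the oxBS sums, were higher at 18 months in 14 of the 16 classes and in all 3 pairs in 7. The BS differences in H3K27me3 quartiles 1 to 3 were 0.057, 0.061 and 0.21 points, smaller than in oxBS. They were 0.63 and 0.25 in H3K4me3 quartiles 2 and 3, and 0.30, 0.29 and 0.22 in gene body quartiles 2 to 4. In BS, H3K4me3 quartile 4 and RNA quartile 4 differed by -0.035 and -0.0042 points, and by 0.12 and 0.0060 without the high-Input windows.

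Each of the 19 autosomes had a higher mean 5mC at 18 months, by 0.19 points (chromosome 10) to 0.45 points (chromosome 1). In 15 of them all 3 pairs were higher, while chromosomes 8, 10, 17 and 18 had a lower aged value in replicate 3. The pair of replicate 2 gave the largest difference in 18 of the 19. Chromosome 1 stood at 72.4% ± 0.699 and 72.8% ± 0.606 (exact permutation p = 0.4), and the ages overlapped on every autosome. Autosomes of 1 library share its conversion and depth and cannot count as replicates. Without aged replicate 3, only 10 of 19 had a higher mean at 18 months, and without young adult replicate 1, 14 did. Each of these choices breaks a pair, and over all autosomal calls replicate 3 was the highest library of both ages.

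In 1 Mb bins, 2406 had at least 500 calls in every library. The quasi-binomial model with moderated dispersion called 0 (0.0%) at an adjusted p under 0.05, while 42 of the 2406 passed 0.05 before adjustment. With the replicate number as a block it called 0 (198 of 2406 unadjusted), edgeR 0 (39 unadjusted) and limma 0 (54 unadjusted). The smallest adjusted p of the quasi-binomial model was 0.9996 without the block and 0.216 with it. The median bin differed by 0.27 points, and 64.8% of bins were higher at 18 months. Without aged replicate 3 these were -0.031 points and 48.2%, and without young adult replicate 1 -0.023 points and 48.8%. The pairs differed in this: 57.6%, 70.2% and 52.3% of bins were higher in replicates 1, 2 and 3. The aged libraries lay above all young adult libraries in 110 bins (4.57%) and below them in 27 (1.12%). The middle 90% of bin differences ran from -0.83 to 1.42 points, while the SD between the libraries of an age had a median of 0.943 points in young adult and 0.944 in aged NSPCs. By CpG content, the quartile of bins with fewest CpGs differed by 0.21 points (pairs 0.14, 0.61 and -0.12) and that with most by 0.41 (pairs 0.37, 0.60 and 0.27; exact permutation p = 0.5). The change from one to the other was not tested, and the replicate 2 pair did not follow it.

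**Figure D4:**
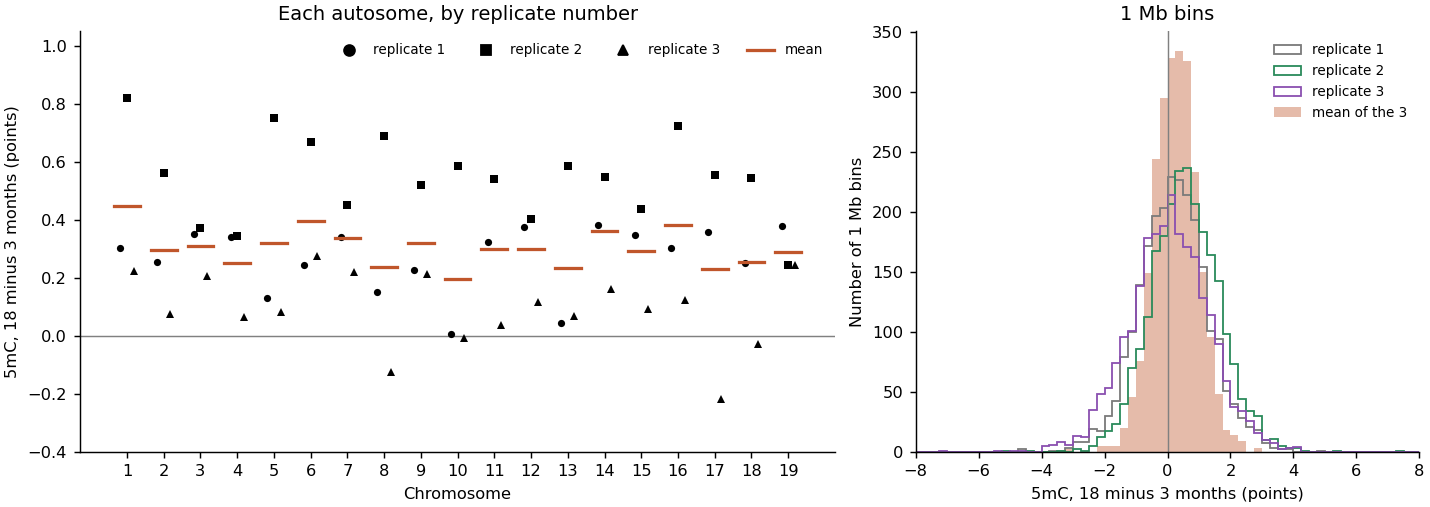
Left, aged minus young adult 5mC (percentage points, y axis) on each autosome (x axis) within replicate numbers 1 to 3 (black markers) and their mean (orange line), which is above 0 on all 19. Right, number of 1 Mb bins (y axis) by the same difference (x axis) for each replicate number (outlines) and their mean (filled), centred at 0.27 points.

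The level of the bins varied far more than the ages did. The median bin had 73.1% 5mC and the middle 90% ran from 61.9% to 79.0%. Among the 5 lowest bins were chr11:96000001-97000000, with 11 genes named Hox, at 46.5% ± 0.642 and 47.2% ± 0.693, and chr15:102000001-103000000, with 7 such genes, at 49.4% ± 0.932 and 50.3% ± 0.787. The lowest of all was chr17:39000001-40000000 at 26.7% ± 1.56 and 25.8% ± 2.65, which held 26166 or more calls per library on 5615 CpGs, many times the depth of a usual bin. Gpc6, a heparan sulphate proteoglycan gene, fills one of the most methylated bins, chr14:117000001-118000000, at 82.1% ± 1.62 and 82.8% ± 1.79. The adjusted p of the model was 0.9996 for each of these 4.

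Single promoters were tested where every library had at least 10 calls, in 23104 windows. The same model called 0 (0.0%) at an adjusted p under 0.05 with a difference of at least 10 points, and 1258 (5.44%) had an unadjusted p under 0.05. It called 0 with the replicate block (1232 unadjusted), and edgeR called 0 (1116 unadjusted). The smallest adjusted p was 0.909. The libraries of the ages did not overlap in 1369 windows that were higher (5.93%) and 1057 that were lower (4.57%) at 18 months. The share of windows without overlap ran from 10.1% in H3K4me3 quartile 1 to 10.7% in quartile 4. Random age labels on 3 and 3 libraries give no overlap at a rate of about 0.1, the smallest exact permutation p. The shares lie near that rate, so their sameness is no finding about the classes. The median difference was 0.42 points over all windows (0.12 without aged replicate 3, 0.69 without young adult replicate 3) and 0.17, 0.56, 0.53 and 0.33 from H3K4me3 quartile 1 to 4.

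Since no window was called, the 10 largest differences are given as a description, among the 2206 windows with at least 20 calls in every library and no overlap. The choice used the oxBS values, so their size is no finding. BS libraries of the same cultures, which had no part in it, are set beside them.

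The 5 largest higher values lay in Kctd3, Mtmr7, Gprin2, Zfp57 and Bmp3. Kctd3, which encodes a potassium channel tetramerisation domain protein (chr1:189005340-189010340), was at 18.3%, 24.0% and 20.8% in young adult and 33.9%, 44.0% and 75% in aged replicates 1 to 3. The last value rests on 20 calls, and in BS the means were 21.8% and 23.5%. Zfp57, the zinc finger protein that protects imprinted methylation (chr17:37000538-37005538), was at 33.3%, 33.8% and 30.7% at 3 months and 54.7%, 56.2% and 62.7% at 18 months (difference 25.27 points, unadjusted p = 0.000324, adjusted p = 0.909, quasi-binomial model). It was the only one of the 10 in which the BS libraries did not overlap either, at 32.7% and 47.0%. In oxBS 10.5% of all windows did not overlap, so 1 of 10 is near that share. The share of all windows without overlap in BS is not given here. Bmp3, a BMP family ligand with strong H3K27me3 (log2 RPM 4.5), went from 20.4% ± 3.11 to 44.6% ± 10.8 in oxBS but stood at 34.4% and 33.0% in BS. Mtmr7, a phosphoinositide phosphatase gene, differed by 26.98 points in oxBS and by -6.86 points in BS. Gprin2, linked to neurite outgrowth, differed by 26.22 points in oxBS and by -3.28 points in BS.

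The 5 largest lower values lay in Fam3c, Zar1, Mcts2, 1810030N24Rik and Tmem196. Mcts2, an imprinted retrogene (chr2:152684648-152689648), was at 63.2%, 66.4% and 67.9% at 3 months and 37.8%, 48.8% and 34.0% at 18 months, with 82 or more calls per library. In BS it stood at 52.1% and 55.8%, with no such difference. Zar1, an oocyte gene, differed by -25.97 points in oxBS and by 1.48 points in BS. Fam3c, a secreted factor, rested on young adult replicate 1 at 79.2%, against 25.6% and 42.1% in the other two and 25.3%, 23.4% and 19.3% in aged NSPCs. Tmem196, a transmembrane protein gene, and 1810030N24Rik differed by -22.99 and -23.79 points in oxBS and by -8.39 and -9.19 points in BS. Of the 10 windows, 5 had the same sign in BS.

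The same was seen over the whole set. Of the 1262 windows in which all aged oxBS libraries were higher, 1261 had 20 BS calls in every library, and 53.4% of these were higher in BS. Of the 942 such windows in which they were lower, 54.5% were higher in BS, and over all 20749 windows with this depth the share was 52.6%. The median oxBS differences of the first 2 sets were 8.85 and -8.76 points, and their median BS differences 0.34 and 0.50. Both BS medians lay close to the 0.27 points of all windows.

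Promoters of 6 gene lists were summed to show named genes. The 16 NSPC identity genes, 14 of them in the top quartile of H3K4me3, were at 8.76%, 9.25% and 10.9% in young adult and 8.53%, 10.1% and 10.3% in aged replicates 1 to 3. The ages overlapped, and 1 of 3 pairs was higher. Sox2 had the least 5mC (1.10% ± 0.344 and 0.97% ± 0.805), and Vim, the intermediate filament vimentin, stood at 1.26% ± 1.5 and 1.49% ± 1.08. Olig2, a factor of oligodendrocyte and transit-amplifying progenitors, was at 3.79%, 4.14% and 12% and then 3.35%, 4.21% and 6.44%. The highest of the list was Gsx2, a patterning factor with little RNA in these cultures and strong H3K27me3 (log2 RPM 4.74), at 35.6%, 32.4% and 44.7% and then 30.2%, 50.0% and 69.0%. Its difference of 12.16 points had an adjusted p of 0.995 in the quasi-binomial model.

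In this list 0 of 16 windows were called and 0 were higher and 2 lower without overlap (12.5%, against 10.5% of all windows). Nes, which encodes the stem cell filament nestin, was at 7.63%, 7.63% and 13.3% in young adult and 6.67%, 3.49% and 3.50% in aged replicates 1 to 3. Sox9, a glial and stem cell factor, was at 7.14%, 8.63% and 6.27% and then 4.07%, 5.29% and 5.11%. Their adjusted p in the quasi-binomial model was 0.909 and 0.951. Egfr, the receptor for the EGF in the medium, was at 17.6%, 18.3% and 10.1% and then 9.50%, 10.9% and 8.40%, with overlap.

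The 39 Hox genes, which set position along the body axis, all lay in the top quartile of H3K27me3 and none in the top quartile of H3K4me3. They were nonetheless almost free of 5mC, at 5.39%, 5.17% and 6.69% in young adult and 5.41%, 5.91% and 6.65% in aged NSPCs. Single windows ranged from 1.51% in Hoxb9 to 25.4% in Hoxa7 at 3 months. Hoxc12 and Hoxc8 were higher without overlap (2.56% ± 0.218 to 4.64% ± 0.107 and 4.90% ± 2.53 to 7.95% ± 1.35), and Hoxa10 was lower (7.88% ± 1.39 to 3.83% ± 1.98). None was called, and 3 of 39 without overlap is 7.69%, against 10.5% of all windows.

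Germline genes are the textbook case of silencing by promoter methylation. The 18 on the list were at 75.4%, 74.0% and 73.3% in young adult and 73.1%, 78.0% and 72.4% in aged NSPCs, with 1 of 3 pairs higher. Of the 17 with enough calls, 16 were above 50% at 3 months, among them Mael, a piRNA pathway gene (81.4% ± 2.32 and 87.3% ± 4.96), and Sycp1, of the synaptonemal complex (76.8% ± 6.55 and 81.4% ± 8.63). Brdt, a testis bromodomain gene with RNA at a log2 RPM of 3.40 here, was the exception at 33.0% ± 8.43 and 35.7% ± 16.1. Tex101, a germ cell surface protein, was the only one of 17 without overlap (5.88%, against 10.5% of all windows), at 82.4% ± 4.20 and 75.9% ± 3.18 (adjusted p = 0.962, quasi-binomial model).

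Imprinted genes carry 5mC on 1 parental allele, and their 14 windows lay between the other lists. They were at 41.1%, 36.6% and 38.5% in young adult and 38.1%, 32.7% and 37.6% in aged replicates 1 to 3. All 3 pairs were lower at 18 months, with differences of -2.97, -3.89 and -0.96 points, and the ages overlapped. The mean difference of -2.60 points became -1.09 without Mcts2, one of the 10 windows above, and replicate 3 was then higher by 1.00. BS of the same 14 windows differed by 0.64 points, higher in 2 of 3 pairs. Of the windows, 1 (7.14%, against 10.5% of all) did not overlap, and 7 of the 14 windows were higher and 7 lower. Snrpn, a paternally expressed splicing gene, was at 41.2%, 53.8% and 37.2% and then 57.1%, 43.9% and 53.5%. Peg10, a retrotransposon-derived gene, was at 48.8%, 56.5% and 30.8% and then 36.3%, 24.7% and 38.8%. In 13 of the 14 windows the libraries of at least 1 age spanned 10 points or more.

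The 1080 olfactory receptor genes, silent and CpG-poor (median 21 CpGs per window), were at 69.3%, 69.96% and 70.9% in young adult and 69.3%, 71.1% and 69.6% in aged NSPCs. Of their 823 tested windows 423 were higher, and 34 were higher (4.13%, against 5.93% of all windows) and 56 lower (6.80%, against 4.57%) without overlap. The 86 genes named Rpl or Rps, 58 of them in the top quartile of H3K4me3, were at 20.1%, 20.2% and 21.4% and then 21.4%, 21.2% and 21.4%. All 3 pairs were higher, by 1.39, 0.95 and 0.02 points, and 9 windows were higher (10.47%, against 5.93% of all) and 2 lower (2.33%, against 4.57%) without overlap. In BS the same genes differed by -0.22 points, with 1 of 3 pairs higher. The largest difference was in Rpl21, of the large ribosomal subunit (25.2% ± 6.38 and 42.4% ± 4.58, adjusted p = 0.909, quasi-binomial model). The names include 8 Rps6k genes, which encode kinases and not ribosomal proteins. Without these 8, 2 of 3 pairs were higher, by 1.55 and 0.81 points, and the difference in replicate 3 was -0.13.

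**Figure D5:**
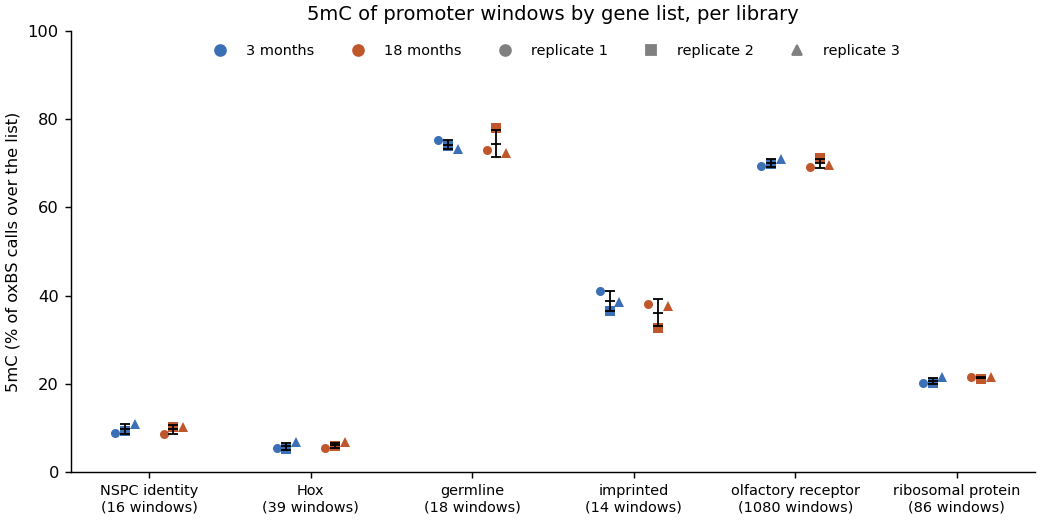
5mC (percent of the oxBS calls summed over a list, y axis) in each of the 6 libraries for 6 gene lists (x axis, with the number of promoter windows). Points are libraries and black bars the mean and SD of 3; the lists run from Hox (5.75% at 3 months) to germline genes (74.2%), and the ages overlap in every list.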

How the data were processed

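NSPC cultures of 3-month-old and 18-month-old male mice were profiled by oxBS, BS, RNA and ChIP sequencing on GRCm38. Counts of methylated and unmethylated calls per CpG position and strand were made by the authors for each library and deposited without normalization, and 99.9% of the positions of 1 library lay on a CpG of the reference. The submitters' processing notes name Bismark 0.12.5, Bowtie2 2.2.5 and Trim Galore 0.4 without a role, while no source used here gives whether duplicates were removed, so amplified copies of a molecule could count more than once. RNA and ChIP values were deposited as log2 RPM, made by the authors per library for RNA and as 1 value per age over the 3 replicates for ChIP. The percent column of the call files was not used.

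Calls were summed per class and library, and percentages computed anew. Classes, autosomes and contrasts were compared by exact permutation tests over libraries, two-sided. Bins of 1 Mb (at least 500 calls in every library) and windows (at least 10) were fitted with quasi-binomial regression, its dispersion moderated across features (limma 3.58.1, R 4.3.3) and Benjamini-Hochberg adjustment. The threshold was 0.05, and for windows also 10 points. Other tools were edgeR 4.0.16, Python 3.11.15, numpy 2.4.6, pandas 2.3.3 and scipy 1.17.1. Tested on simulated data, the model recovered 95.5% of 200 bins changed by 5 points among 2406 with a correlation of calls of 0.0005, and 6.37% of its calls were false. It recovered 77.5% of 200 windows changed by 30 points among 23104 with a correlation of 0.02, and 6.63% of its calls were false. Smaller changes were not simulated, while bin differences in the data ran from -3.24 to 2.97 points. The simulation therefore does not tell how often changes of the observed size would be called. Same-numbered young adult and aged libraries deviated together across the 2406 bins (correlations 0.161, 0.219 and 0.240), so libraries were treated as paired by number and the paired value is given as an alternative. Derivations of an age were made on different days, and whether a number marks the same day in both ages was not found in these sources.

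The windows named are the 5 largest rises and falls among called windows or, since none was called, among tested windows with at least 20 calls in every library and no overlap, and examples from the 6 gene lists. The classes, lists and members were chosen with earlier results of these data known. Alternatives changed windows, quartiles, positions, tests and libraries.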

Additional observations from a re-analysis of the deposited data

How the results depend on the processing

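Of 200 class and contrast values under alternatives other than leaving out libraries or pairing them, 183 kept their direction. The exact permutation test used for them allows no p below 0.1. None could therefore pass the threshold under any alternative, and only the direction is informative here. The cause was not tested for any change named here. Using the 212911 positions with a call in all 6 libraries, the difference turned to -0.069, -0.18 and -0.57 points in H3K4me3 quartiles 2 to 4, and the contrast of quartile 4 minus quartile 1 to -1.54 (exact permutation p = 0.1). It turned to -0.040 and -0.43 in H3K27me3 quartiles 2 and 4 (contrast -1.04), to -0.12, -0.31 and -1.05 in promoters of RNA quartiles 1, 2 and 4, and to -0.16 in the gene body contrast. Only 5 autosomes were then higher in every replicate number, and with a minimum of 100 instead of 500 calls 2 of 1394 bins were called, 1 in each direction. With BS calls H3K4me3 quartile 4 stood at -0.035, its contrast at -0.15 and RNA quartile 4 at -0.0042. The H3K4me3 contrast was -0.023 within 500 bp of the TSS, the RNA contrast 0.29 as an unweighted mean over windows, and the gene body contrast -0.13 among expressed genes. The chi-squared test on pooled calls, which ignores the spread between replicates, called 206 bins (163 higher) and 803 windows (479 higher). In simulated windows with a correlation of calls of 0.02, 88.2% of its calls were false. It called 1672 windows there, more than the 803 in the data, so that share does not carry over to the 803.

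Leaving out 1 library gave ranges of -0.28 to 0.52, 0.33 to 1.31, 0.32 to 0.66 and 0.20 to 0.82 points in H3K4me3 quartiles 1 to 4, and 0.06 to 0.98 for their contrast. For H3K27me3 quartiles 1 to 4 they were 0.08 to 0.51, 0.18 to 0.64, 0.33 to 0.89 and 0.23 to 1.15, with -0.28 to 1.02 for the contrast. For promoters by RNA they were 0.24 to 0.92, 0.26 to 1.16, 0.40 to 0.75 and 0.10 to 0.50, with -0.68 to 0.19 for the contrast. For gene bodies they were -0.21 to 0.63, -0.14 to 0.74, -0.11 to 0.83 and -0.16 to 0.66, with -0.20 to 0.35 for the contrast. Autosomes with a higher mean numbered 10 (without aged replicate 3) to 19, and calls of bins and windows stayed at 0. Autosomes higher in every remaining replicate number were 15 to 19. Leaving out a library drops its pair from this count, so it could only stay at 15 or rise. The bin median ran from -0.03 (without aged replicate 3) to 0.67 points (without young adult replicate 3). Leaving out replicate 1 in both ages turned the gene body contrast to -0.043. Leaving out replicate 2 turned H3K4me3 quartile 1 to -0.19 and gene body quartile 1 to -0.050. Leaving out replicate 3 turned the H3K4me3 and H3K27me3 contrasts to -0.019 and -0.020. The alternatives on high Input, on replicate numbers and on shared positions in bins were chosen after the data were seen, as was leaving Mcts2 out of the imprinted windows.

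With the replicate number as a block, exact tests of the pairs gave p = 0.25 (the smallest possible) for the 0.80 points of H3K4me3 quartile 2 and the 0.82 of H3K27me3 quartile 4. No call changed, and the block left 0 bins and 0 windows called. The smallest adjusted p of the bins in the quasi-binomial model went from 0.9996 to 0.216 with the block. Pairing leaves a mean difference as it is, so the 19 autosomes with a higher mean follow from its construction.

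At 1.2 to 1.33 calls per covered position, single CpGs could not be compared between libraries. The 16 classes rested on at least 148408 calls per library, the joint classes on at least 27538 and the 500 bp classes on at least 36069. With 3 libraries per age the exact permutation test used for classes allows no p below 0.1, so it could pass no class at 0.05 whatever the difference.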

Other observations

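The step in 5mC between the least marked promoters and the next class was looked at after the class values had been seen. H3K4me3 quartile 2 minus quartile 1, without the high-Input windows, was -26.49, -26.99 and -26.54 points in young adult and -25.67, -26.71 and -25.41 in aged replicates 1 to 3. The ages overlapped, and the step was smaller at 18 months in 3 of 3 pairs, by 0.82, 0.28 and 1.14 points (mean 0.74, exact permutation p = 0.3, paired exact p = 0.25). At the positions called in all 6 libraries, with all windows, the change of this step turned to -1.04 points.

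Promoter windows also differed in how variable they were between libraries of 1 age. Under counting error alone the dispersion of the quasi-binomial model, before moderation, has a mean of 1 and a median below 1. Its median was 0.99 in H3K4me3 quartile 1, 1.49 in quartile 2, 2.43 in quartile 3 and 2.11 in quartile 4. Windows with an unadjusted p under 0.05 made up 1.08% of quartile 1, 4.63% of quartile 2, 8.45% of quartile 3 and 6.84% of quartile 4. The share without overlap was 10.1% to 10.7% in all 4, near the rate of about 0.1 that random age labels give. The model moderated all windows toward 1 common dispersion and set none below 1. The shares by p therefore depend on the dispersion of each class and are no measure of its age difference. The median window held 33 CpGs in quartile 1 and 151 in quartile 4, and the part of window size in these values was not tested.

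Depth in the promoter classes differed between libraries. Aged replicate 3 had the lowest number of calls per CpG of the 6, at 0.629 in H3K4me3 quartile 1 and 0.674 in quartile 4, against medians over the libraries of 0.955 and 0.993.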
